A study of Amphimedon queenslandica with 144 samples.

Results

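A set of 100 transcripts of the demosponge Amphimedon queenslandica was followed through single animals, chosen because their level hardly differed between young and old larvae and was low once larvae had settled. The 100 came from 44016 Aqu2.1 gene models in a table of 47411 features. Of these, 8100 had a median of at least 10 CPM (the count divided by the animal's total, times 1e+06) in 36 swimming larvae. Among the 8100, 5175 differed by no more than 0.5 in median log2(CPM + 1) between seawater larvae aged 10 h and larvae aged 0.5 h. The members are the 100 of these 5175 with the lowest settlement difference, the median log2(CPM + 1) of 27 settled animals minus that of the 36 swimming larvae. The measurements of settled and swimming animals thus chose the members, and every value that sets settled against swimming animals is a description of that choice, with nothing read from it.

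The study counted transcripts in 144 animals, each a separate individual, with no drug or genetic change named in the labels, by CEL-Seq2, which barcodes the polyadenylated RNA of each animal and counts its 3′ ends. The 27 settled post-larvae had attached 2 h or less after they were given a piece of alga, either the articulated coralline Amphiroa fragilissima or the crustose coralline Mesophyllum sp. Of these, 6 were given A. fragilissima at 5 h after emergence and 7 at 8 h, and 7 were given Mesophyllum sp. at each of these times. The 36 swimming larvae of the rule met the same algae at the same times, 9 in each group, and had not settled 2 h later. A further 63 swimming larvae played no part in the rule. They were given A. fragilissima at 1.5 or 3 h, Mesophyllum sp. at 1.5 or 3 h, or filtered seawater alone at 1.5, 3 or 5 h, with 9 in each group. The remaining 18 were 9 larvae given seawater at 8 h, collected at 10 h, and 9 larvae collected at 0.5 h with no cue. Total counts were 874227 to 2645808 in settled animals, 999233 to 2905367 in the 36 larvae and 541737 to 4692279 in the other 81 larvae. The settled animals had counts for 15817 to 20547 features and the 36 larvae for 16443 to 21677. Each animal carries a library label, T, K or C, and the settled animals had 2 in T and 25 in C, whereas the 36 larvae had 14 in T, 8 in K and 14 in C. Among A. fragilissima animals of 5 h the 6 settled were all in C, and the 9 swimming larvae were 4 in T and 5 in K. Settled and swimming animals of that alga and hour thus share no label.

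Sponge larvae of this kind are brooded, swim with a ciliated outer epithelium, and have no neurons or gut. Chemical cues on coralline algae induce many marine larvae to settle, and in this sponge the larva then attaches, flattens and rebuilds its larval cell layers into the juvenile body. Settlement is therefore a change of both tissue and behaviour within hours. The files give identifiers without gene names or functions, so the members are described by identifier and no role is assigned to any of them. For the same reason no cell type could be checked against markers. Each library is a whole animal, so fewer cells of a type and less RNA per cell cannot be told apart in any value below.

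The members were lowered in settled animals more often than lost. Their median level over the 27 settled animals had a middle value of 8.67 CPM and ran from 0.699 to 147 CPM across the 100 members, against 32.7 CPM with a range of 10.2 to 485 CPM in the 36 swimming larvae. A settled median under 1 CPM was found for 2 members, whereas 44 members kept a settled median of at least 10 CPM. Settled medians were 4.57% to 34.5% of the swimming medians, with a middle value of 27.9%. The settlement difference ran from -3.50 to -1.50 with a median of -1.71, and its median over the 5175 age-stable transcripts was -0.33. It was -2 or lower in 21 members and -3 or lower in 3. With edgeR's trimmed-mean scaling (TMM) in place of totals, the median over the members was -1.38. The scaling factors were 0.645 to 1.13 in settled animals and 0.984 to 1.20 in the 36 larvae. A value of 0 counts made up 120 of 2700 settled values and 166 of 11700 larval values, and a count of 0 allows up to 3 counts, which are worth 1.13 to 3.43 CPM in the settled libraries.

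The threshold fell within a continuous range of values. The last 3 members were Aqu2.1.22243_001 with a settlement difference of -1.52, Aqu2.1.35121_001 with -1.51 and Aqu2.1.22483_001 with -1.50. The first 3 transcripts outside were Aqu2.1.37205_001 with -1.50, Aqu2.1.37123_001 with -1.49 and Aqu2.1.14861_001 with -1.49. By library totals the direction is the common one among age-stable transcripts, since 3948 of the 5175 had a difference below 0. A difference of -1 or lower was found in 488 of them, and 72 lay at least as far above 0 as the last member lies below it. These numbers were not recomputed with TMM. In the edgeR fit described below, settled over swimming was negative in 75.9% of all features by totals and in 57.3% with TMM.

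No member separated the settled animals from the 36 swimming larvae. For each member the settled animals below the lowest of the 36 larvae numbered 0 to 21 of 27, with a median of 14.5. At least 14 settled animals lay below all 36 larvae in 58 members, and no settled animal did in 12 members. In those 12 at least 1 of the 36 larvae had 0 counts, so no lower value was possible. The share over all age-stable transcripts was not computed, so these counts are not read as particular to the members. Against the median of the 36 larvae, 17 to 27 settled animals were lower. Settled animals also differed more among themselves. The standard deviation of log2(CPM + 1) over the 27 settled animals had a median of 1.27 over the members (range 0.655 to 2.29), against 0.602 over the 63 larvae that the rule did not use. It was larger in the settled animals for 93 of 100 members and for 3896 of the 5175 age-stable transcripts.

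The lowered members were unevenly spread over the settled animals. A settled animal had between 2 and 79 of the 100 members below the lowest of the 36 larvae, with a median of 54. The count was at least 50 in 14 animals and at most 5 in another 5. Each of the 36 larvae, set against the other 35, had 0 to 7 such members, and the other 81 larvae had 0 to 26. In 18 of the 27 settled animals the count was above that of every one of these 81 larvae. The value of 26 belongs to a Mesophyllum sp. larva of 1.5 h with the shallowest library of the study, 541737 counts. The 12 members with 0 counts in at least 1 of the 36 larvae could not be counted in settled animals. The counts use CPM by totals, while TMM factors were 0.645 to 1.13 in settled animals and 0.984 to 1.20 in the 36 larvae. They were not recomputed with TMM or over all age-stable transcripts, so their spread is not read as particular to the members.

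The low and high animals were spread unevenly over the settled groups. Settled animals on A. fragilissima had 11 to 75 lowered members with a median of 60.5 at 5 h (n = 6), and 2 to 76 with a median of 73 at 8 h (n = 7). On Mesophyllum sp. the counts were 3 to 77 with a median of 5 at 5 h, and 18 to 79 with a median of 70 at 8 h (n = 7 each). Thus 4 of the 5 animals with at most 5 lowered members were Mesophyllum sp. animals of 5 h, and the other was A. fragilissima animal number 6 of 8 h. That animal, with 2 lowered members and 2394777 counts, stood far from the others of its group, and Mesophyllum sp. animal number 7 of 8 h had the highest count of 79. Within library label C the settled animals had 2 to 79 lowered members (n = 25) and swimming larvae 0 to 12 (n = 23). The 2 settled animals of label T had 4 and 77. Over all 100 members the median log2 difference of an animal from the median of the 36 larvae was -3.03 to -0.12 in settled animals, -0.34 to 0.25 in the 36 larvae and -0.67 to 0.24 in the other 81.

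**Figure D1:**
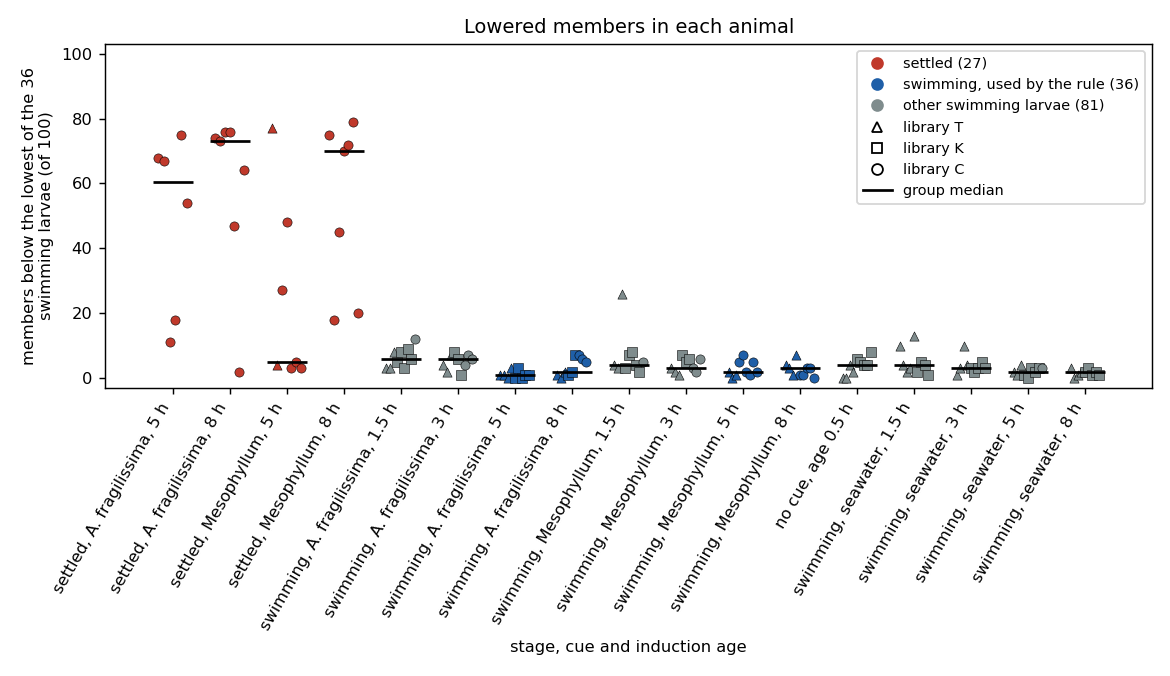
Number of the 100 members whose CPM lies below the lowest of the 36 swimming larvae used by the rule (vertical axis), for each animal (points) in the 17 groups, named by stage, cue and hour at which the cue was given. Black bars are group medians and marker shapes give the library label. Settled animals spread from 2 to 79, while the 36 larvae reach 7 and the other larvae 26.

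The 10 members with the lowest settlement difference are described by their values in single animals. In 4 of them all of the 36 larvae had counts, and settled values reached from near 0 up into the larval range. Aqu2.1.16002_001 had 0 to 105 CPM with a median of 6.05 in settled animals, against 19.8 to 179 with a median of 64.3 in the 36 swimming larvae, and the other 81 larvae had 11.6 to 154 with a median of 67.5. There 20 of 27 settled animals lay below all 36 larvae. Aqu2.1.43496_001 had 2.79 to 106 CPM with a median of 16.7 in settled animals, against 17.7 to 246 with a median of 100.1 in the 36 larvae. Of the settled animals 14 lay below every one of these larvae, and the 81 other larvae had a median of 111 CPM. Aqu2.1.25576_001 had 0 to 69.9 CPM with a median of 9.06 in settled animals, against 8.56 to 168 with a median of 57.7 in the 36 larvae, and 13 settled animals lay below the larvae. Aqu2.1.36476_001 had 0 to 41.3 CPM with a median of 3.68 in settled animals, against 1.47 to 51.1 with a median of 24.0 in the 36 larvae. Its groups overlapped more, with 7 settled animals below the larvae.

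In another 3 some animals of both stages were at or near 0 and others were well above it. Aqu2.1.07942_001 had the lowest settlement difference of all. It had 0 to 37.9 CPM with a median of 0.975 in settled animals, against 0 to 73.7 with a median of 21.4 in the 36 larvae. At least 5 CPM was found in 13 of 27 settled animals, in 19 of the 36 larvae and in 34 of the other 81 larvae, so the medians of the chosen groups lie on either side of a gap. Within label C its median was 11.2 CPM in 25 settled animals and 1.49 CPM in 14 of the 36 larvae, which turns its settlement difference to 2.32. Aqu2.1.17598_001 reached at least 5 CPM in 12 of 27 settled animals and in 24 of the 36 larvae. Its median was 1.05 CPM in settled animals and 10.2 CPM in the 36 larvae. Aqu2.1.25028_001 reached that level in 7 settled animals and in 25 of the 36 larvae, with a settled range of 0 to 21.3 CPM and a swimming range of 0 to 43.03 CPM. In these transcripts no settled animal could lie below the lowest larva, because at least 1 of the 36 larvae had 0 counts.

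The other 3 of the 10 also had swimming larvae at 0. Aqu2.1.28975_001 had 0 to 54.3 CPM with a median of 3.16 in settled animals, against 0 to 88.7 with a median of 29.5 in the 36 larvae. Aqu2.1.05974_001 had a median of 2.44 CPM and a highest value of 84.4 in settled animals, against 18.6 and 76.0 CPM in the 36 larvae, so its highest settled animal was above all 36. Aqu2.1.18116_001 had a median of 3.16 CPM and a highest value of 261 in settled animals, against 22.4 and 343 CPM in the 36 larvae. Among the other 81 larvae it ranged from 0 to 479 CPM.

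**Figure D2:**
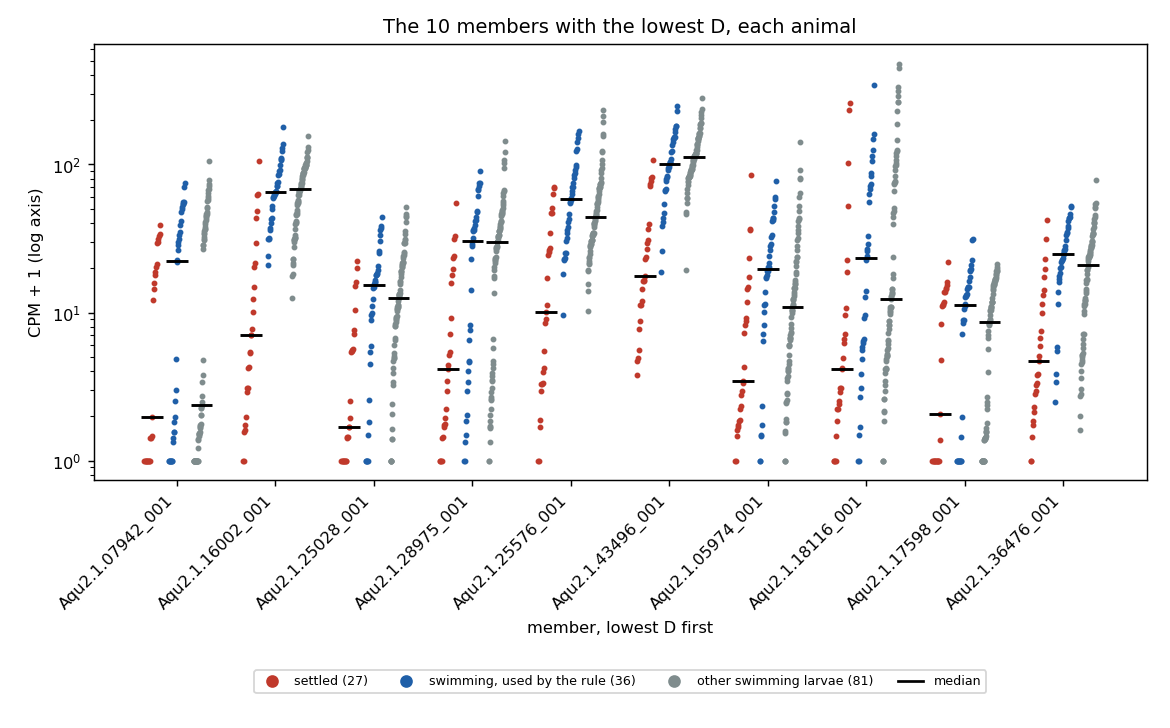
CPM + 1 on a log axis for every animal (points) in the 10 members with the lowest settlement difference (D), with settled animals left of the 36 swimming larvae of the rule and the other 81 larvae at the right. Bars are medians. Aqu2.1.16002_001 and Aqu2.1.43496_001 have 20 and 14 settled animals below all 36 larvae, whereas Aqu2.1.07942_001 has animals at both a high level and near 0 in each set.

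Among the 5 most abundant members the transcript remained well above detection after settlement. Aqu2.1.27189_001 had 46.6 to 584 CPM with a median of 147 in settled animals, against 68.1 to 656 with a median of 485 in the 36 larvae. Aqu2.1.43389_001 had 30.1 to 530 CPM with a median of 128 in settled animals, against 116 to 680 with a median of 439 in the 36 larvae. Aqu2.1.31233_001 had 14.7 to 584 CPM with a median of 94.5 in settled animals, against 113 to 689 with a median of 350 in the 36 larvae. Settled animals below all 36 larvae numbered 2 for the first, 13 for the second and 14 for the third. Aqu2.1.39861_001 had 11.2 to 371 CPM with a median of 84.2 in settled animals, against 34.6 to 538 with a median of 250 in the 36 larvae, and 10 settled animals were below all larvae. Aqu2.1.37410_001 had 27.7 to 244 CPM with a median of 64.3 in settled animals, against 134 to 294 with a median of 232 in the 36 larvae. Its swimming range was narrow, and 19 settled animals lay below it.

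The most settled animals outside the larval range were found in 3 members, which each had 21 of 27 settled animals below all 36 larvae. Aqu2.1.28113_001 had 3.73 to 67.8 CPM with a median of 11.05 in settled animals, against 36.6 to 85.0 with a median of 53.0 in the 36 larvae. Aqu2.1.23745_001 had 4.46 to 107 CPM with a median of 18.9 in settled animals, against 36.1 to 110 with a median of 70.3 in the 36 larvae. Aqu2.1.41971_001 had 0.466 to 23.4 CPM with a median of 6.75 in settled animals, against 12.6 to 35.2 with a median of 24.5 in the 36 larvae. All 27 settled animals were below the larval median in the last of these, while the highest settled animals of the other 2 lay above it.

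Between swimming groups the members spanned somewhat more than other age-stable transcripts. Over the 13 swimming groups the group medians of a member spanned 1.03 log2 units in the median member, with a range of 0.404 to 5.67, against 0.80 for the median age-stable transcript. The span was over 1 in 51 members, and its upper quartile over the age-stable transcripts was 1.08. The members were less abundant, with a median of 32.7 CPM in the 36 larvae against 51.1 CPM over the age-stable transcripts. The 13 groups include those that chose the members. Whether level or this choice accounts for the wider span was not tested. The widest was Aqu2.1.07942_001 with 5.67, followed by Aqu2.1.18116_001 with 4.26 and Aqu2.1.12710_001 with 4.16. Aqu2.1.12710_001 had its highest group median, 26.1 CPM, in swimming Mesophyllum sp. larvae of 8 h and its lowest, below 1 CPM, in seawater larvae of 8 h. Its median at 0.5 h was also low, and the rule compared that age with seawater larvae of 8 h. The narrowest spans were 0.40 for Aqu2.1.33087_001, 0.42 for Aqu2.1.37410_001 and 0.46 for Aqu2.1.16115_001. Group medians of Aqu2.1.33087_001 stayed between 36.4 and 48.4 CPM in all 13 swimming groups. The identifiers Aqu2.1.33086_001 and Aqu2.1.33087_001 are both members and consecutive, as are Aqu2.1.37409_001 and Aqu2.1.37410_001. Whether these pairs share reads was not tested, so their separate values are uncertain.

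**Figure D3:**
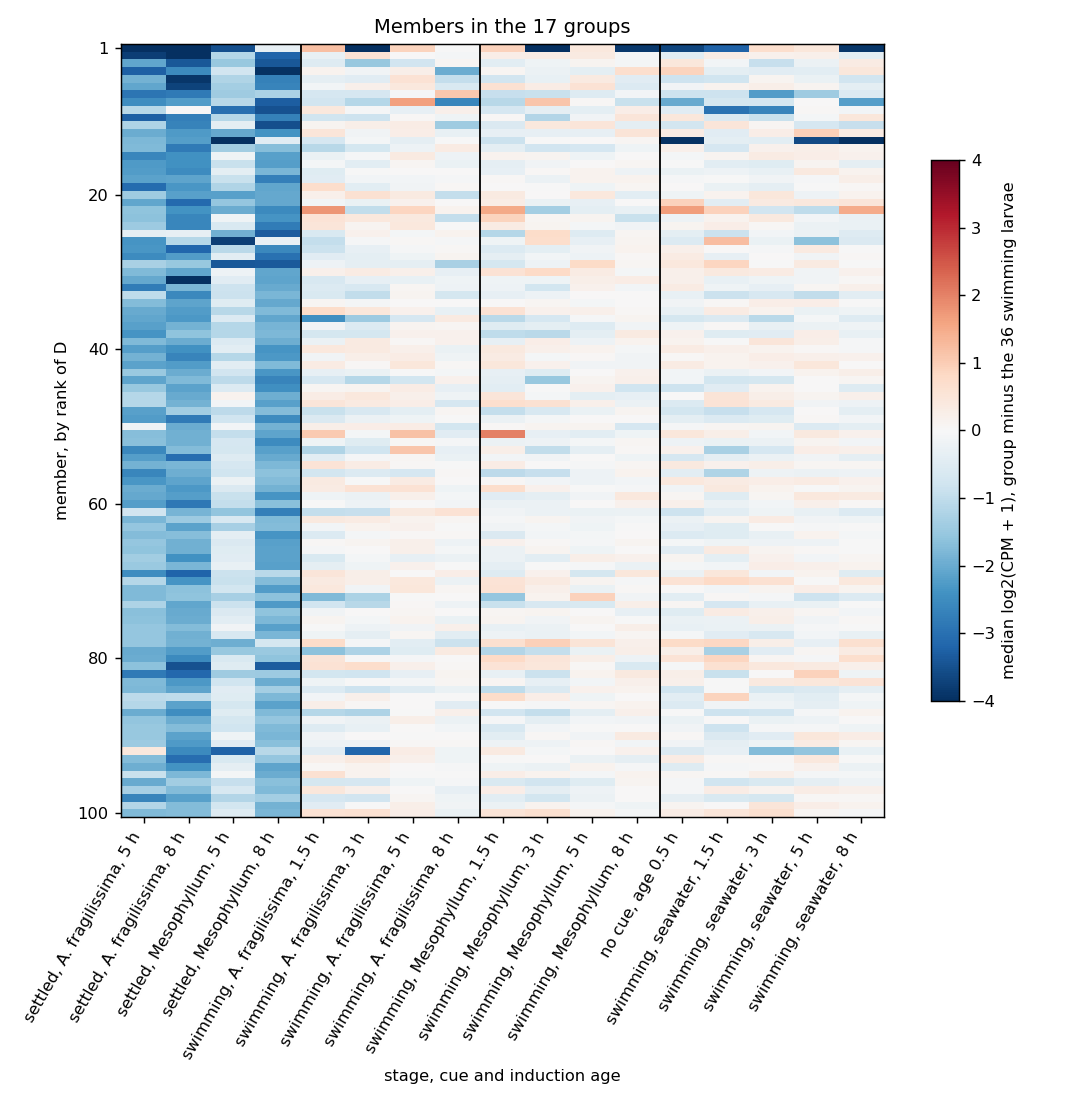
Median log2(CPM + 1) of each group minus the median of the 36 swimming larvae of the rule (colour, limited to 4 units either way), for the 100 members in order of settlement difference (rows) and the 17 groups (columns). Lines separate the settled groups, both sets of swimming larvae given an alga, and larvae given no alga. Settled columns are blue for most members, palest for Mesophyllum sp. at 5 h, where the median of lowered members per animal was 5.

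Some of the leading members varied together among settled animals. Over the 45 pairs formed by the 10 members with the lowest settlement difference, Pearson's r of log2(CPM + 1) over the 27 settled animals had a median of 0.35 and ran from -0.11 to 0.94, and Spearman's rho had a median of 0.34. The pairs share libraries and their totals, and the same settled animals chose the members, so these are descriptions. The highest was between Aqu2.1.25576_001 and Aqu2.1.43496_001, with r = 0.94 and rho = 0.93 in the 27 settled animals. Without the 2 animals farthest from the median r was 0.92, and within label C it was 0.93. Aqu2.1.16002_001 had r = 0.90 with Aqu2.1.43496_001, 0.85 with Aqu2.1.25576_001 and 0.85 with Aqu2.1.36476_001. Aqu2.1.07942_001 reached at most 0.35 with any of the other 9, Aqu2.1.05974_001 at most 0.42 and Aqu2.1.17598_001 at most 0.18. After subtraction of the 4 settled group means the median r over the pairs was 0.29. In the 63 larvae outside the rule the median r was 0.03 with a range of -0.23 to 0.27, and none of the 45 pairs passed a permutation test (100000 resamples, lowest Benjamini-Hochberg adjusted p = 0.484). Pairs of other transcripts were not examined in either set of animals, so these values are not read as particular to the members.

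Counts of all 14950 features that passed a filter on low counts were fitted with edgeR's quasi-likelihood test, with the 17 groups and the library label as terms. A transcript was called at a Benjamini-Hochberg adjusted p below 0.05. All 100 members passed the filter. All features include many of lower level than the members, and shares over the 5175 age-stable transcripts were not computed for these fits. For settled over swimming animals, the contrast that chose the members, 88 were called lower and 0 higher, and 34% of all features were called in either direction, 16.9% higher and 17.2% lower. The choice of members fixed this count, which is therefore no test of them. The members' log2 fold changes had a median of -1.09, against -0.10 over all features, and ran from -2.07 to -0.12. Fold changes of the fit compare means, whereas the settlement difference compares medians. Aqu2.1.07942_001 had a log2 fold change of -0.28, Aqu2.1.17598_001 of -0.36 and Aqu2.1.16002_001 of -2.07. Scaling by library totals moved the median of all features to -0.40 and gave 1351 features higher and 5593 lower, where TMM gave 2523 higher and 2564 lower.

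Most members had lower levels in settled animals that had met the cue at 8 h, collected at 10 h. The comparison is with settled animals that had met it at 5 h, collected at 7 h. The rule chose the members for low medians over these same settled animals, without regard to age or alga, so the contrast between members and all features below is a description. With edgeR, 24 members were called lower and 1 higher at 8 h, against 3.53% and 3.82% of all features (7.34% in either direction). An unadjusted p below 0.05 was found for 47 members and for 21.1% of all features. The median log2 fold change was -0.50 in the members and -0.02 over all features, and it was negative in 78 of 100 members and in 51.6% of all features. Whether the called members vary together between animals was examined for the 10 leading members alone. The number of lowered members per animal is another summary of the same values. On A. fragilissima its median was 73 at 8 h (range 2 to 76) and 60.5 at 5 h (11 to 75). On Mesophyllum sp. it was 70 at 8 h (18 to 79) and 5 at 5 h (3 to 77). The ranges of both ages thus overlapped on each alga, and the medians lay farther apart on Mesophyllum sp.

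The largest of these differences were checked by animal. Aqu2.1.27189_001, the most abundant member, had 46.6 to 161 CPM with a median of 123 in 14 settled animals of 8 h, against 133 to 584 with a median of 451 in 13 of 5 h. All 14 animals of 8 h lay below the median at 5 h, and the log2 fold change was -1.65 ± 0.23 (SE; edgeR adjusted p = 5.24e-08). Aqu2.1.37563_001 had 1.23 to 14.2 CPM with a median of 8.17 at 8 h, against 2.45 to 67.8 with a median of 35.1 at 5 h. Again all 14 animals of 8 h lay below the median at 5 h, with a log2 fold change of -1.76 ± 0.28 (edgeR adjusted p = 2.59e-06). Aqu2.1.24880_001 had 3.33 to 124 CPM with a median of 13.96 at 8 h, against 9.68 to 329 with a median of 97.4 at 5 h, a log2 fold change of -1.87 ± 0.42 (edgeR adjusted p = 0.00158). In that transcript 13 of 14 animals of 8 h were below the median at 5 h. Aqu2.1.18116_001 had a median of 2.00 CPM and a highest value of 21.6 at 8 h, against 5.66 and 261 CPM at 5 h, with a log2 fold change of -3.18 ± 0.94 (edgeR adjusted p = 0.0221). Its groups overlapped, since both included animals at 0. The 1 member called higher, Aqu2.1.37409_001, had equal medians of 12.4 CPM at both ages. Its highest animal had 98.5 CPM at 8 h, against 31.7 CPM at 5 h, and without A. fragilissima animal number 6 of 8 h the adjusted p was 0.133.

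How many members were called depended on the setting of the fit. The settings differ in the animals and features used as well as in the estimate of the spread, and the cause was not tested. All 144 animals share 1 estimate per feature, and settled animals varied more than larvae, so adjusted p-values between settled groups may be too small. With the settled groups fitted alone 4 members were called lower, against 0.976% of all features, and within label C 3 were, against 0.97% of all features. Aqu2.1.27189_001, Aqu2.1.34840_001 and Aqu2.1.37563_001 were called in both of these. Without A. fragilissima animal number 6 of 8 h, chosen for leaving out because its values stood apart, 48 members were called lower, against 4.95% of all features. By library totals the calls over all features were 369 higher and 818 lower, where TMM gave 571 higher and 527 lower. A difference in the settlement change itself between 8 h and 5 h, which sets settled against swimming animals at each age, was called by edgeR for 0 members, with 27 at an unadjusted p below 0.05 and 0 by DESeq2. Settled and swimming A. fragilissima animals of 5 h share no library label, so their part of this difference rests on the fitted label term. Of all features edgeR called 0.602%, 0.368% higher and 0.234% lower, and 12.6% had an unadjusted p below 0.05. The median of this difference was -0.43 in the members and -0.02 over all features, it was negative in 81 of 100 members and in 51.8% of all features, and 26 of the 27 were lower. For Aqu2.1.27189_001 this difference was -0.71 ± 0.30 on the log2 scale (edgeR adjusted p = 0.262) and for Aqu2.1.37563_001 it was -0.72 ± 0.35 (edgeR adjusted p = 0.373). Without A. fragilissima animal number 6 of 8 h 5 members were called lower, against 0.751% of all features. Most members thus had a negative value of this difference, and with all animals none of them passed the test of it. The members share the same animals, which also chose them, so the number of negative values is a description and no test of the set.

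Between settled animals of A. fragilissima and of Mesophyllum sp., the same animals that chose the members, most members had a negative fold change and few were called. The log2 fold change of A. fragilissima over Mesophyllum sp. animals was negative in 88 of 100 members and in 52.8% of all features. Its median was -0.36 in the members and -0.02 over all features. With edgeR 2 members were called lower and 0 higher, against 0.268% and 0.161% of all features (0.428% in either direction). An unadjusted p below 0.05 was found for 28 members and for 12.8% of all features. Aqu2.1.23745_001 had 4.46 to 47.5 CPM with a median of 16.2 in 13 A. fragilissima animals, against 8.85 to 107 with a median of 29.8 in 14 Mesophyllum sp. animals, a log2 fold change of -0.73 ± 0.17 (edgeR adjusted p = 0.0251). Of the A. fragilissima animals 10 of 13 were below the Mesophyllum sp. median. Aqu2.1.40353_001 had 0.744 to 19.8 CPM with a median of 3.43 on A. fragilissima, against 0.952 to 31.4 with a median of 13.6 on Mesophyllum sp., a log2 fold change of -0.99 ± 0.25 (edgeR adjusted p = 0.0439), and 11 of 13 were below. With the settled groups fitted alone neither was called, with an edgeR adjusted p of 0.628 for Aqu2.1.23745_001 and 0.633 for Aqu2.1.40353_001, while their log2 fold changes there were -0.77 ± 0.29 for Aqu2.1.23745_001 and -0.997 ± 0.477 for Aqu2.1.40353_001. Without A. fragilissima animal number 6 of 8 h 22 members were called lower, against 1.93% of all features. By library totals the calls over all features were 47 higher and 12 lower, where TMM gave 24 higher and 40 lower. A difference in the settlement change between the algae was called for 0 members by edgeR and by DESeq2, with 11 at an unadjusted p below 0.05 in edgeR. Of all features edgeR called 0.0201%, 0.0134% higher and 0.00669% lower, and 7.34% had an unadjusted p below 0.05. Its median was -0.34 in the members and -0.03 over all features, it was negative in 78 of 100 members and in 53.2% of all features, and all 11 were lower. This difference too rests on the label term for A. fragilissima at 5 h, where settled and swimming animals share no label.

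Before settlement few members were called between larvae with an alga and larvae in seawater. These comparisons used larvae of 1.5 and 3 h that the rule did not use, 18 for each cue, and both share the same 18 seawater larvae. For A. fragilissima 1 member was called lower and 0 higher by edgeR, against 3.2% and 1.95% of all features (5.15% in either direction). By library totals the calls over all features were 351 higher and 309 lower, where TMM gave 291 higher and 479 lower. An unadjusted p below 0.05 was found for 8 members and for 18% of all features. The medians of the log2 fold change were -0.07 in the members and -0.03 over all features. For Mesophyllum sp. 0 members were called by edgeR and by DESeq2, with 4 at an unadjusted p below 0.05 in edgeR, which held for 6.66% of all features. Of all features 0.0736% were called, 0.0535% higher and 0.0201% lower. The median log2 fold change was -0.05 in the members and -0.01 over all features. The 95% interval lay within 1 log2 unit of 0 in 76 members for A. fragilissima and in 81 for Mesophyllum sp., and it reached farther in the rest. The called member, Aqu2.1.26649_001, had 0.622 to 33.9 CPM with a median of 5.30 in A. fragilissima larvae, against 5.19 to 46.2 with a median of 16.9 in seawater larvae. Of the A. fragilissima larvae 15 of 18 were below the seawater median, with a log2 fold change of -1.33 ± 0.39 (edgeR adjusted p = 0.0274). Fitted with these groups alone its log2 fold change was -1.15 (edgeR adjusted p = 0.0876). It was -0.78 within label T (adjusted p = 0.553) and -1.59 within label K (adjusted p = 0.233).

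Age within the swimming period was examined between seawater larvae aged 7 and 3.5 h, which the rule did not use either. By edgeR 1 member was called higher and 1 lower at 7 h, against 1.62% and 1.9% of all features (3.52% in either direction). By library totals the calls over all features were 281 higher and 191 lower, where TMM gave 242 higher and 284 lower. An unadjusted p below 0.05 was found for 19 members and for 15.3% of all features. The medians of the log2 fold change were 0.04 in the members and 0.02 over all features. Aqu2.1.36053_001 had 24.3 to 164 CPM with a median of 49.8 at 7 h, against 9.45 to 29.1 with a median of 18.8 at 3.5 h (n = 9 each), a log2 fold change of 1.84 ± 0.42 (edgeR adjusted p = 0.00357). All 9 larvae of 7 h were above the median at 3.5 h, although the rule had found little difference between 10 and 0.5 h. Aqu2.1.23745_001 had 27.4 to 95.7 CPM with a median of 63.8 at 7 h, against 81.6 to 142 with a median of 92.8 at 3.5 h, a log2 fold change of -0.73 ± 0.20 (edgeR adjusted p = 0.0240). Of the larvae of 7 h 8 of 9 were below the median at 3.5 h. Neither call was made within label T, where the edgeR adjusted p was 0.471 for Aqu2.1.36053_001 and 0.431 for Aqu2.1.23745_001, or within label K, where it was 0.0504 for Aqu2.1.36053_001 and 0.238 for Aqu2.1.23745_001. The log2 fold changes of Aqu2.1.36053_001 were 1.85 in T and 1.90 in K, and those of Aqu2.1.23745_001 were -0.72 in T and -0.82 in K. The standard errors were larger here, with a median of 0.34, and the 95% interval lay within 1 log2 unit of 0 in 43 members.

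**Figure D4:**
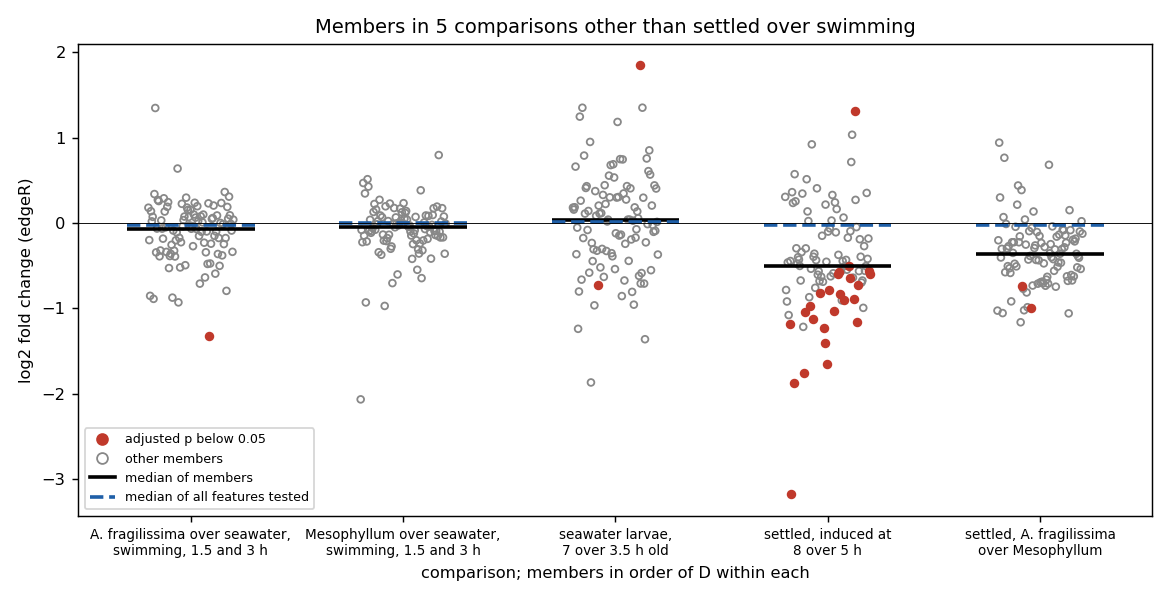
Log2 fold changes of the 100 members (points) by edgeR in 5 comparisons other than settled over swimming, in order of settlement difference (D) within each comparison. Filled points have an adjusted p below 0.05, solid bars are medians of the members and dashed bars medians of all features. The medians of the members are -0.07, -0.05 and 0.04 in the 3 larval comparisons, and -0.50 and -0.36 in both settled comparisons, which use the settled animals that chose the members.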

How the data were processed

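Single larvae and post-larvae were sequenced by CEL-Seq2 and, per the series text, processed with the public CEL-Seq pipeline against Aqu2.1 gene models. Neither the aligner nor the build is given in the sources used here. Raw counts, deposited by the authors in 1 table, have the 144 animals as columns, matched by title. CPM were computed from these counts and column sums, and medians were taken of log2(CPM + 1).

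Counts were tested 2-sided with edgeR 4.0.16 in R 4.3.3 (low-count filter by group, TMM scaling, robust quasi-likelihood fit of 17 groups plus library label), tested first on simulated counts. DESeq2 1.42.0 served as an alternative. SE was obtained as the absolute log2 fold change over the root of the F statistic. Python 3.11.15, NumPy 2.4.6, pandas 2.3.3, SciPy 1.17.1 and matplotlib 3.10.9 did the rest.

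Members and comparisons were chosen with earlier results of these data known. Named transcripts were the 10 with the lowest settlement difference, those next to the threshold, the 5 most abundant, up to 3 called in each direction per tested comparison, the 3 with the most and the fewest settled animals below all 36 larvae, and the 3 with the widest and narrowest spans over swimming groups. Others are marked as chosen after their values were seen. Aqu2.1.34840_001, Aqu2.1.33086_001 and TCONS_00004208 are such. A RefSeq gene table of the species held 0 identifiers of the Aqu2.1 form, so no names, sequences or coordinates are given. Labels number the animals within a group. Same-numbered animals of different groups did not deviate together (median r = -0.0117 over 868 pairs), so numbers were not used as pairs. Depth limits low members, where 3 counts are worth over 1 CPM in every settled library, and counting error alone is covered by that limit.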

Additional observations from a re-analysis of the deposited data

Results flagged for a closer look

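Values far from the rest of their group were sought in 74 sets of values, the 17 groups for the summary counts per animal and the 4 settled groups for the 10 leading members, and 19 stood apart by Dixon's test. A rate of about 1 in 20 by chance holds only for separate sets of normally distributed values. Here the CPM were not log-transformed, the sets share animals, and the settled animals also chose the leading members. The 19 sets are therefore listed as values to look at and are not weighed against that rate.

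Among settled animals of A. fragilissima at 8 h, 1 animal had 2 lowered members (group median 73). The highest animal of that group also stood apart for Aqu2.1.16002_001 (105 CPM, median 2.096), Aqu2.1.28975_001 (54.3 CPM, median 4.19), Aqu2.1.25576_001 (49.7 CPM, median 2.98), Aqu2.1.43496_001 (70.6 CPM, median 6.70), Aqu2.1.36476_001 (41.3 CPM, median 2.79) and Aqu2.1.18116_001 (21.6 CPM, median 3.97). Among settled animals of A. fragilissima at 5 h the highest animal stood apart for Aqu2.1.16002_001 (61.7 CPM, median 3.77), Aqu2.1.28975_001 (30.6 CPM, median 2.20), Aqu2.1.18116_001 (230.5 CPM, median 3.21) and Aqu2.1.36476_001 (22.1 CPM, median 1.62).

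On Mesophyllum sp. at 5 h the highest settled animal stood apart for Aqu2.1.05974_001 (84.4 CPM, median 6.27) and Aqu2.1.18116_001 (261 CPM, median 9.75). At 8 h it did for Aqu2.1.18116_001 (17.9 CPM, median 1.40) and Aqu2.1.36476_001 (30.2 CPM, median 2.86). Aqu2.1.18116_001 was thus apart in each of the 4 settled groups.

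Among swimming larvae, 1 Mesophyllum sp. larva of 1.5 h, the shallowest library, had 26 lowered members (median 4) and a median log2 difference from the 36 larvae of -0.67 (median -0.10). A seawater larva of 3 h had 10 lowered members (median 3). The lowest larva of 0.5 h had a median log2 difference of -0.22 (median -0.07).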

How the results depend on the processing

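Of the recomputed summaries (members called per comparison, the median settlement difference and the membership), 54 stayed within 1.5 times the reported value or within its spread and 26 moved further. For named transcripts 50 recomputed calls were kept and 31 lost, and 49 recomputed settlement differences of single members moved by less than their spread while 1 changed sign. For settled over swimming animals 56 were called within label C (6.17% of all features lower). That setting left out the A. fragilissima animals of 5 h, as no swimming larva of that alga and hour carries label C. It is therefore not the same comparison with fewer animals. For settled 8 h over 5 h the count was 14 without the low-count filter, with 1.77% of all features called in either direction. Bracketed percentages below are of the same kind. It was 11 with a replicate block (3.69%), 4 with only the groups compared (1.53%) and 3 within label C (1.62%). Without settled A. fragilissima animal number 6 of 8 h it was 48 (10.2%). For settled A. fragilissima over Mesophyllum sp. it was 0 by library totals (0.395%) and with a replicate block (0.1%). It was also 0 with only the groups compared (0%) and within label C (0%). It was 1 without the filter (0.101%) and without the label term (0.268%), 4 with DESeq2 (1.2%) and 22 without that animal (2.78%). For the settlement change of 8 over 5 h it was 5 without that animal (1.94%). For A. fragilissima over seawater it was 2 without the label term (4.9%) and with only the groups compared (8.64%). It was 0 there with a replicate block (5.2%) and within label T (0.738%). For Mesophyllum sp. over seawater it was 1 within label K (0.128%). For seawater larvae of 7 over 3.5 h it was 1 by library totals (3.16%) and without the filter (0.72%). It was 8 of 99 with only the groups compared (7.53%) and 0 within label T (0.0693%). It was 4 within label K (2.83%) and 5 with DESeq2 (4.76%). The settlement difference of Aqu2.1.07942_001 turned to 2.32 within label C. Of the animals 12.1% correlated best with their own number, where 1 in 9 would give 11.1%. The numbers were therefore not treated as pairs, and why calls were lost under the block was not tested. The causes were not tested, although the settings that use fewer animals have fewer to test with. Of the 100 members, 79 remained among the lowest 100 with trimmed-mean scaling and 71 within label C.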

Other observations

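Among features whose identifiers have another form than Aqu2.1, 43 met both filters of the rule and 1 reached the members' settlement difference. It was TCONS_00004208, chosen after its values were seen, with 0 to 32.6 CPM and a median of 5.80 in settled animals, against 9.86 to 33.3 with a median of 20.7 in the 36 swimming larvae. Its settlement difference was -1.67. Of 2925 Aqu2.1 transcripts at 10 CPM or more that were not age-stable, 115 had a settlement difference at or below that of the last member. At 10 h 78 of these were higher than at 0.5 h in larvae without an alga, and 37 were lower.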
